A study of Mus musculus with 74 samples.

Results

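Keratins are the intermediate filament proteins of epithelial cells, and the mouse genes with a numbered keratin symbol are described here across the developing stomach and intestine and the adult ileum. All rows of the RNA count table whose symbol was Krt followed only by digits were taken, which gave 48 of 24015 gene symbols. Of these, 26 encode type I (acidic) and 22 type II (basic to neutral) keratins. The 4 keratins with a lettered symbol (Krt6a, Krt6b, Krt33a and Krt33b) fell outside the rule. A keratin filament is built from type I and type II chains in equal number, so the genes are used in partners. KRT8 with KRT18, KRT19 or KRT20 fill simple epithelia such as the glandular stomach and the intestine. KRT5 with KRT14 or KRT15 fill the basal layer of stratified epithelia, and KRT4 with KRT13 fill the layers above it in the wet squamous linings of mouth, oesophagus and forestomach. In the mouse the forestomach is lined by such a stratified squamous epithelium, the hindstomach by glandular epithelium and the small intestine by a simple columnar one.

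RNA sequencing was made on 31 epithelial libraries in 15 groups, with 2 libraries in each group except 1 with 3. Wild-type forestomach, hindstomach and small intestine of CD1 embryos were sampled at embryonic day (E) 12, 14 and 16, the small intestine also at E18, and the E12 and E14 intestinal cells are labelled midgut. The libraries labelled as deleted for Cdx2, which encodes an intestinal transcription factor, came from mice of a mixed B6;129 background with floxed Cdx2 alleles (Cdx2f/f). In 3 libraries of E16 small intestine labelled deleted at E10, the recombinase was Shh-Cre and no treatment was given. In 2 libraries of E16 intestine labelled deleted at E13 and 2 of E18 intestine labelled deleted at E15, it was Villin-Cre, driven by a promoter of the intestinal epithelium, with 5 mg tamoxifen given by mouth. The adult libraries were villi of the ileum of Cdx2f/f mice, either with Villin-Cre and 1 mg tamoxifen injected on 5 days (2 libraries) or without Cre and with sunflower oil (2 libraries), taken 3 days after the last injection. Every embryonic comparison of a labelled knockout with a wild type also compares B6;129 with CD1, and strain and genotype cannot be told apart. For the labels of deletion at E13 and E15, tamoxifen is also given in the labels only for the knockouts, so treatment cannot be told apart either. Cells of E12, E14 and E16 and those labelled deleted at E10 and E13 were digested with trypsin and sorted for Epcam, while the E18 groups were EDTA-released villi without a sort. Stage and preparation therefore cannot be told apart between E16 and E18. Nothing in the labels says whether libraries of a group came from separate embryos or mice, so p-values measure the spread between these libraries only.

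Libraries held between 5970227 and 62463167 counts (median 21910062), with the lowest in the E16 forestomach. Cdx2 itself went against several labels. It stood at 14.5 to 27.5 CPM (counts scaled to a common library size) with the label of deletion at E10 against 196 to 218 in wild-type E16 intestine. It was 213 to 217 CPM in those labelled deleted at E13, 371 to 388 in those labelled deleted at E15 (200 to 206 in wild-type E18) and 462 to 472 in the adult ones labelled knockout (242 to 248 in the adult wild type). A count over the whole gene does not show which exons gave the reads, and the labels do not name the floxed ones. The E12 libraries labelled hindstomach also stood apart. Their Cdx2 was 116 to 160 CPM, near that of the E12 small intestine (115 to 153). The stomach gene Cldn18 was at 0.0598 to 0.308 CPM. The comparison with E12 hindstomach thus rests on libraries in which both genes go against the label. Of 3 squamous genes, Sox2 (9.07 to 20.6 CPM) and Trp63 (2.96 to 6.34) were above the E12 small intestine (3.41 to 6.63 and 0 to 1.05). Dsg3 had no count in either. The E16 forestomach carried transcripts of other cells in spite of the sort. A list of 9 mesenchyme and muscle genes took 2.2 to 2.63% of its counts (0.016 to 0.0164% at E14) and blood genes took 1.59 to 2.03%, while Epcam was at 112 to 137 CPM (806 to 825 at E14). In bulk libraries, fewer cells of a type and less RNA per cell cannot be told apart.

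By role, 6 of the 48 keratins are keratins of simple epithelia, 4 of the basal layer, 16 of suprabasal or specialised stratified layers and 21 of the hair root sheath and hair, and 1 (Krt222) is a keratin-like gene set apart. A filter on low counts left 28 of them for the embryonic test and 16 for the adult one. Per-library values are given for 24, namely 15 keratins of fixed interest and 9 others whose mean passed 1 CPM in at least 1 group. The other 24 stayed at or under a group mean of 0.908 CPM, and 3 (Krt24, Krt40 and Krt71) had no count in any library. Levels are CPM over library sizes scaled by trimmed means (TMM), and since they are not divided by transcript length they compare 1 gene between libraries, not genes with each other. Krt14, Krt16 and Krt17 are close in sequence, as are Krt8 and Krt18 and their pseudogenes, so reads that could belong to more than 1 of them make these counts less certain.

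**Figure D1:**
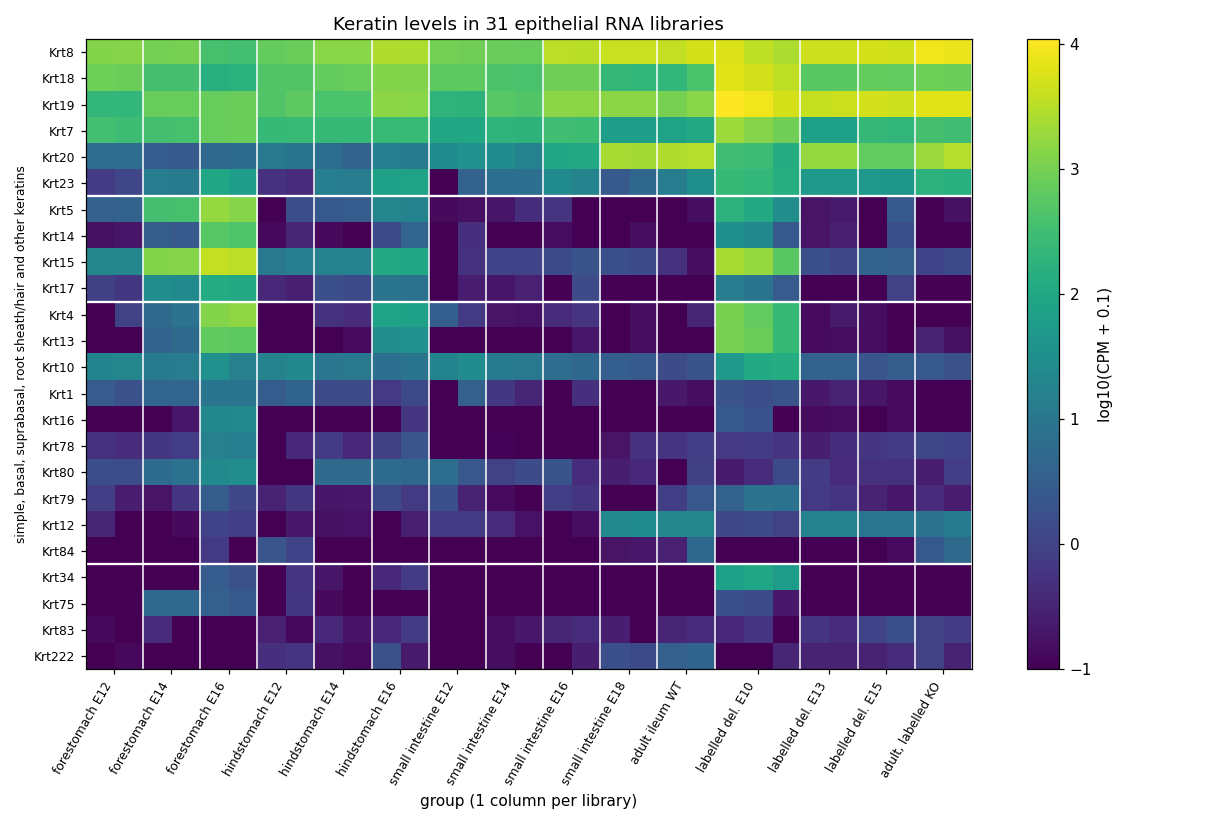
Levels of the 24 named keratins (rows, ordered by role) in the 31 libraries (columns, ordered by group), as log10 of CPM plus 0.1. Krt8, Krt18 and Krt19 are high in every column, while Krt5, Krt15, Krt4 and Krt13 are high at E16 in forestomach and with the label of deletion at E10, and Krt12 and Krt20 are highest in late or adult intestine.

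The stretch before the start site is shown for keratins whose levels moved in different directions in what follows. RefSeq (GRCm38.p6) held promoter windows for 34 of the 48 keratins (35 windows). The 60 bases before the start are given 5' to 3' on the strand of the gene, and capitals mark the letters ATAAA, the end of a TATA box, where they occur. Krt5 stands for the basal layer (chr15:101712906-101712965, minus strand), Krt13 (chr11:100121567-100121626, minus) and Krt78 (chr15:101954288-101954347, minus) for layers above it, Krt20 (chr11:99438154-99438213, minus) and Krt12 (chr11:99422260-99422319, minus) for genes that came up in late intestine, and Krt8 (chr15:102004343-102004402, minus) and Krt18 (chr15:102028156-102028215, plus) for the first keratins of simple epithelia.
Krt5: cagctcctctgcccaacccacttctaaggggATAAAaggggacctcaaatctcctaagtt
Krt13: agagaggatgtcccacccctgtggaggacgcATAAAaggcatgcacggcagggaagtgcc
Krt78: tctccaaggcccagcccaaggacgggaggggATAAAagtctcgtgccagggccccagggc
Krt20: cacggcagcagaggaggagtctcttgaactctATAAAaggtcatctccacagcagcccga
Krt12: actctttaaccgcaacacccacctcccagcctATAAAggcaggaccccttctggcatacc
Krt8: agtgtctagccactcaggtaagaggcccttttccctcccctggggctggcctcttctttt
Krt18: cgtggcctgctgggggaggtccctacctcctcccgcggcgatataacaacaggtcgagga
In Krt5, Krt13 and Krt78 the first A of these letters lay 29 bases before the start, and in Krt20 and Krt12 it lay 28 bases before. The Krt8 and Krt18 windows held no match to ATAAA, though that of Krt18 held TATAA. In Krt5, Krt13 and Krt78 the base before the marked letters was not T, so TATAAA was not complete there. Over all windows of this length, ATAAA on the gene's strand was found in 22 of 35 keratin windows (62.9%) and in 7.48% of 32851 windows of all genes. Over the 250 bases before the start, TATAAA on the gene's strand was found in 14 of 35 keratin windows (40%) against 7.59% of all windows. Among letters read on both strands, CCCGCCC was in 1 keratin window (2.86% against 23.4%), TGANTCA, the AP-1 letters, in 2 (5.71% against 6.75%) and CACCC in 27 (77.1% against 52%). These are matches of letters, and the ATAAA search was chosen after the sequences had been seen.

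At E12 the keratin content was of the simple kind in every library, including those labelled hindstomach whose Cdx2 and Cldn18 go against the label. Simple epithelial keratins took 97.9 to 98.4% of keratin counts in these 6 libraries, and all keratins together reached 1871 to 2759 CPM. The shares then changed most in forestomach, where the simple share was 58.9 and 58% at E14 and 20.1 and 22.3% at E16, while basal keratins took 40.2 and 40.9% and then 60.1 and 54.2%. Suprabasal keratins took 0.781 and 0.929% at E14 and 19.8 and 23.4% at E16. In hindstomach at E16 simple keratins still took 95.4 and 95.7%, with 2.42 and 2.06% basal and 2.16 and 2.19% suprabasal. In small intestine they took 99.8% at E16, 99.6% at E18 and 99.6% in the adult wild type, in both libraries each time. The 95% Wilson intervals of these shares, which cover counting error only, were at most 0.77 percentage points wide. Libraries of 1 group differed by more, as the basal shares of 60.1 and 54.2% in E16 forestomach show.

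**Figure D2:**
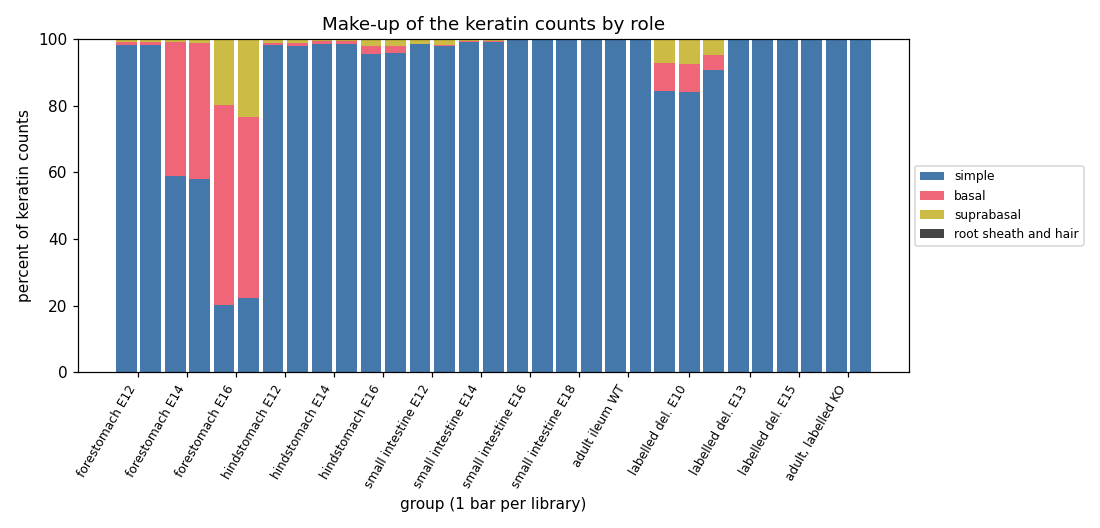
Share of keratin counts in percent (vertical axis) by role in each of the 31 libraries (bars, 1 per library). The bars of E16 forestomach are mostly basal and suprabasal, those of the libraries labelled deleted at E10 are 84 to 90.7% simple, and those of wild-type intestine are almost wholly simple.

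The wild-type forestomach gained its basal keratins between E12 and E14. Krt5, the main type II keratin of basal cells, stood at 3.45 and 3.83 CPM at E12 and at 352 and 380 CPM at E14. Krt15, a type I keratin of basal cells, went from 20.6 and 20 to 1302 and 1369 CPM. The E14 values lay far above the E12 values, with log2 differences of 6.64 (standard error, SE, 0.88, adjusted p = 3.0e-05) for Krt5 and 6.04 (SE 0.51, adjusted p = 1.1e-07) for Krt15 by edgeR's quasi-likelihood test with Benjamini-Hochberg adjustment over all genes tested. Krt17, a type I keratin of appendages and wounded epithelium, rose as well, from 0.81 and 0.543 to 29.1 and 25.1 CPM (log2 5.33, SE 1.03, adjusted p = 0.00113). Krt14, the usual partner of Krt5, lagged behind. At E14 it stood at only 2.91 and 2.49 CPM against 0.0705 and 0.104 at E12, and Krt14 counts were 0.00827 and 0.00657 of Krt5 counts in the same libraries, where Krt15 counts were 3.7 and 3.61 of them.

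Between E12 and E14 Krt13 and Krt4 also came up in forestomach and simple keratins changed. Suprabasal keratins as a group were not new, at 24.6 and 24.2 CPM at E12, most of it Krt10, and 32.8 and 40.3 CPM at E14. Krt13 had no count at E12 and 3.81 and 5.39 CPM at E14, at least 50.1-fold higher against a floor of 3 counts per library. Krt4, its type II partner, stood at 0 and 0.854 CPM and then at 5.52 and 8.31 CPM (log2 3.85, SE 0.80, adjusted p = 0.00176). Its E12 counts came from replicate 2 alone, and the log2 value was 3.02 without E12 replicate 1 and 10.36 without E12 replicate 2. Among simple keratins Krt18 fell from 856 and 822 to 353 and 355 CPM (log2 -1.25, SE 0.16, adjusted p = 2.2e-05). Krt19, found in ducts and simple linings and in basal cells of some stratified ones, rose from 220 and 218 to 751 and 751 CPM (log2 1.78, SE 0.21, adjusted p = 7.9e-06). Krt8 was 1290 and 1324 CPM at E12 and 987 and 1023 at E14 and did not pass the fold threshold of 1 log2 unit that a call required beside an adjusted p under 0.05. In all, 10 keratins were higher at E14 and 2 lower among the 28 tested, where 12.7% of all genes were called, and 8 of the 12 calls were kept in each fit that left out 1 library. Those of Krt14, Krt20, Krt75 and Krt80 were not. Krt14 was lost without either E12 library or E14 replicate 1, with an adjusted p of up to 0.094.

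From E14 to E16 the forestomach rose in keratins of the layers above the basal one and in Krt14. Krt4 went from 5.52 and 8.31 to 1310 and 1621 CPM (log2 7.72, SE 0.73, adjusted p = 9.6e-08), and Krt13 from 3.81 and 5.39 to 636 and 584 CPM (log2 7.04, SE 0.57, adjusted p = 8.5e-08). Krt14 now followed, from 2.91 and 2.49 to 536 and 448 CPM (log2 7.51, SE 1.01, adjusted p = 6.6e-06), so that its counts were 0.309 and 0.331 of those of Krt5. The stress and suprabasal keratin Krt16 was at 0 and 0.108 CPM at E14 and at 22.4 and 26.2 CPM at E16, a ratio of summed counts of 413 (95% counting interval 140 to 2014). Krt78, a keratin of differentiated squamous cells, stood at 0.556 and 0.723 and then at 15.3 and 14.1 CPM (log2 4.51, SE 1.08, adjusted p = 0.00223). No library of 1 stage overlapped the other for any of these 5 genes, which follows from changes of this size. The share of all genes without overlap was not counted. Krt1 and Krt10, the partners of cornifying epidermis, were not called, at 4.36 and 4.41 and then 9.11 and 8.73 CPM for Krt1 and 12.4 and 13.1 and then 34.9 and 15.3 CPM for Krt10.

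The basal pair that had come up first rose less. Krt5 stood at 352 and 380 CPM at E14 and at 1735 and 1356 CPM at E16 (log2 2.08, SE 0.69, adjusted p = 0.0182), but the call was lost without either E14 library or E16 replicate 1 (adjusted p 0.081 to 0.1). Krt15 stood at 1302 and 1369 and then at 3854 and 3424 CPM (log2 1.45, SE 0.42, adjusted p = 0.00709, and 0.052 without E14 forestomach replicate 1). The simple keratins Krt8 and Krt18 fell. Krt8 went from 987 and 1023 to 377 and 347 CPM (log2 -1.47, SE 0.23, adjusted p = 2.5e-05). Krt18 went from 353 and 355 to 144 and 166 CPM (log2 -1.19, SE 0.17, adjusted p = 7.3e-06). With RLE (relative log expression) factors in edgeR in place of TMM, Krt18 was at -0.90, below the fold threshold. Krt7, a keratin of ducts and of some stratified linings, stood at 367 and 377 and then at 736 and 809 CPM (log2 1.05, SE 0.21, adjusted p = 3.8e-04), which library size scaling without factors took to 0.77. Of the 28 keratins tested 15 were higher at E16 and 2 lower, where 37.7% of all genes were called, and 10 of the 17 calls were kept in each fit without 1 library. The higher ones were 3 of 6 simple, 4 of 4 basal, 7 of 11 suprabasal tested and 1 of 6 hair keratins tested. Krt17, the fourth basal one, was not called without any 1 of the 4 libraries (adjusted p 0.13 to 0.19), and the count was 11 without E14 forestomach replicate 1. DESeq2 gave 12 higher and 1 lower, and the calls of Krt5 (adjusted p = 0.21), Krt16 (0.24), Krt17 (0.14) and Krt34 (0.24) were lost there. Mesenchyme and blood transcripts rose in the same libraries, as given above, and Trp63, a regulator of basal cells, was at 455 to 458 CPM at E14 and 77.3 to 86.6 at E16. Their part in the result was not tested.

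Most of a list of genes around the keratin filament was higher in forestomach at E14 than at E12. The list held 19 genes, mainly anchors of the filaments at desmosomes and hemidesmosomes and linkers between filaments, and also Flg2, Tchh, Trim29 and Fam83h, which are not parts of these junctions. Of these 18 were tested, and 14 were higher and none lower, where 12.7% of all genes were called (median log2 1.73 against -0.03 for all genes), among them Ppl (periplakin, 3.29), Perp (4.28) and Itgb4 (the hemidesmosomal integrin chain, 3.39). From E14 to E16 none was higher and 6 were lower, where 37.7% of all genes were called (median -0.47 against 0 for all genes), with Dsp (desmoplakin) at -1.95 and Itga6 at -2.07. Epithelial markers fell in these libraries too. Cdh1 was at 699 to 743 CPM at E14 and 91.7 to 102 at E16, and a list of 4 epithelial genes took 0.253 to 0.263% and then 0.0316 to 0.0386% of counts, beside the mesenchyme share given above. Their part in the result was not tested. In small intestine from E16 to E18, 12 were higher and none lower, where 42.1% of all genes were called and 20.1% were higher.

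**Figure D3:**
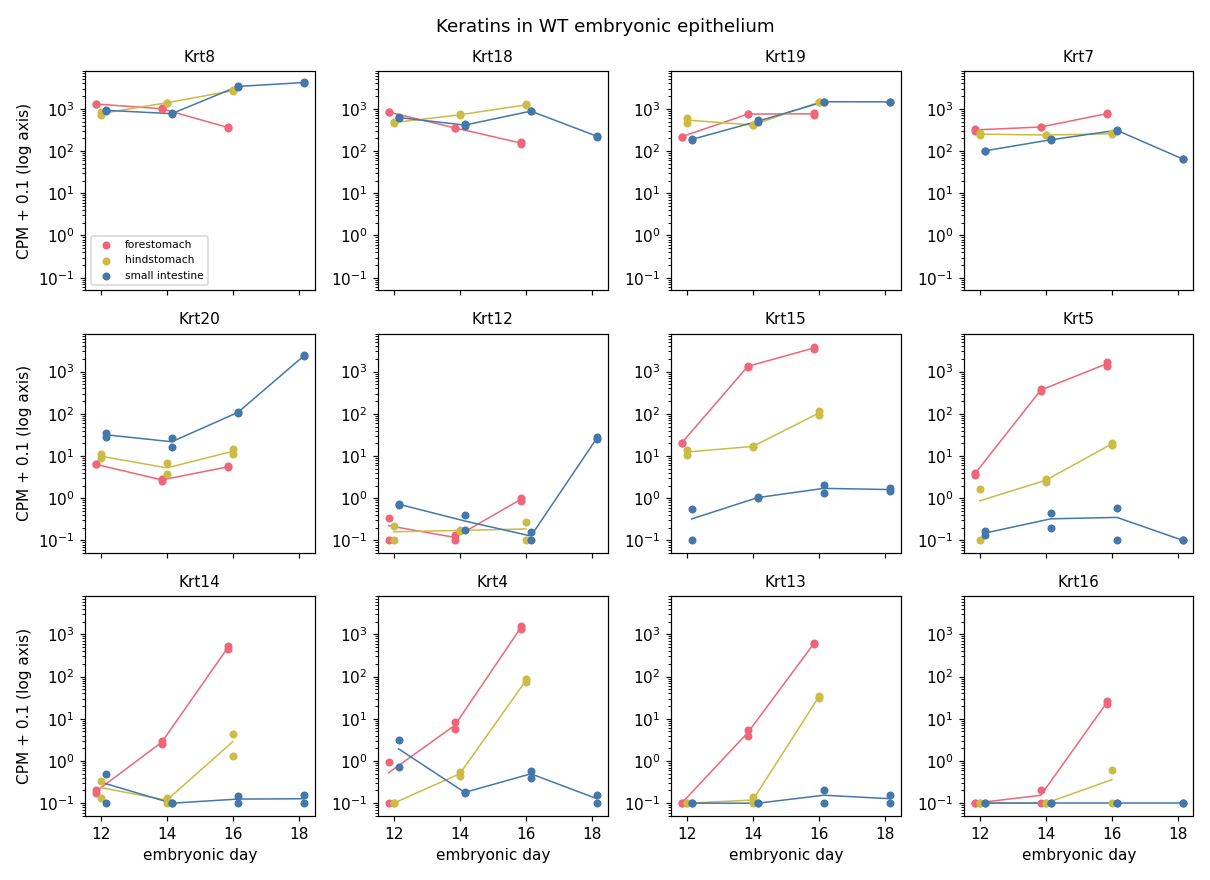
Levels of 12 keratins (panels) as CPM plus 0.1 on a log axis against embryonic day in wild-type forestomach, hindstomach and small intestine, 1 point per library. Krt5, Krt15, Krt4, Krt13 and Krt14 lie above the other organs in forestomach from E14, the last 3 of them at only 2.49 to 8.31 CPM at that stage, and Krt20 and Krt12 are highest in small intestine at E18.

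Set against the hindstomach, the forestomach was higher in its basal keratins and in Krt4 and Krt13 at E14, and in more of the stratified keratins at E16. At E12, 1 keratin was higher and 2 lower in forestomach, where 7.11% of all genes were called. Krt19 was at 220 and 218 CPM in forestomach and 473 and 614 CPM in the libraries labelled hindstomach (log2 -1.31, SE 0.21, adjusted p = 3.1e-04). The other calls were of scarce genes, Krt80 (1.52 and 1.45 CPM against none) and Krt84 (none against 2.03 and 0.958 CPM), and that of Krt84 was lost without any 1 of the 4 libraries. At E14, 7 keratins were higher and 1 lower, where 8.46% of all genes were called, and all 4 basal keratins and 2 of 11 suprabasal ones tested (Krt4 and Krt13) were among the 7. Krt15 stood at 1302 and 1369 CPM against 16.7 and 16.9 CPM in hindstomach (log2 6.31, SE 0.52, adjusted p = 7.9e-08), and Krt5 at 352 and 380 against 2.36 and 2.78 CPM (log2 7.15, SE 0.91, adjusted p = 2.2e-05). The 1 lower keratin was Krt18, at 353 and 355 against 712 and 736 CPM (log2 -1.03, SE 0.16, adjusted p = 1.8e-04). It fell short of the threshold with RLE factors (-0.99), which left 7 higher and 0 lower. Without either E14 hindstomach library the calls of Krt14, Krt17 and Krt75 were lost and the count was 5, and Krt14 was also lost without E14 forestomach replicate 1 and Krt75 without either E14 forestomach library.

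At E16, 13 keratins were higher in forestomach than in hindstomach and 3 lower, where 20.1% of all genes were called. All 4 basal keratins and 7 of 11 suprabasal ones tested were higher. Krt5 stood at 1735 and 1356 CPM against 20.7 and 18 CPM (log2 6.32, SE 0.85, adjusted p = 1.6e-05), and Krt4 at 1310 and 1621 against 85.6 and 75.7 CPM (log2 4.18, SE 0.61, adjusted p = 3.7e-05). Hindstomach was thus not without them, and its Krt13 was at 31.2 and 35.4 CPM. Krt8 was lower in forestomach, at 377 and 347 CPM against 2738 and 2673 CPM (log2 -2.90, SE 0.24, adjusted p = 2.6e-08), and Krt18 at 144 and 166 against 1291 and 1207 CPM (log2 -3.01, SE 0.18, adjusted p = 3.1e-10). A list of 4 epithelial genes took 0.0316 to 0.0386% of counts in forestomach and 0.159 to 0.168% in hindstomach. Mesenchyme and muscle genes took 2.2 to 2.63% against 0.853 to 0.883%, and blood genes 1.59 to 2.03% against 0.129 to 0.181%. The part of these lists in the result was not tested. Library size scaling gave 12 higher and 5 lower. The count was 10 without E16 hindstomach replicate 1, and 9 of the 16 calls were kept in each fit without 1 library. Of the 7 suprabasal ones, Krt4 and Krt13 were kept, while Krt10, Krt12, Krt16, Krt78 and Krt80 were each lost without at least 1 library of either organ.

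Against small intestine the basal keratins Krt5 and Krt15 were higher in forestomach at each stage (Krt5 at E12 in 3 of 4 fits without 1 library), and by E16 most suprabasal keratins tested were higher too. At E12, 4 keratins were higher and 1 lower in forestomach, where 10.1% of all genes were called. Krt15 was already at 20.6 and 20 CPM against 0 and 0.446 CPM (log2 6.44, SE 0.67, adjusted p = 1.9e-06). Its intestinal counts came from 1 library, and the log2 value was 5.49 without E12 small intestine replicate 1 and 11.92 without replicate 2. Krt20, a keratin of differentiated intestinal cells, was lower at 6.34 and 6.21 against 27.9 and 35.8 CPM (log2 -2.34, SE 0.33, adjusted p = 6.9e-05). Without E12 small intestine replicate 2 the count was 9, and in a fit of only these groups it was 2. At E14, 10 were higher and 1 lower, where 11.9% of all genes were called, with Krt15 at 1302 and 1369 against 0.925 and 0.947 CPM (log2 10.48, SE 0.64, adjusted p = 6.2e-10); without E14 small intestine replicate 1 the count was 7. At E16, 17 were higher and 3 lower, where 35% of all genes were called, and 16 of these 20 calls were kept in each fit without 1 library. Krt14 gave a ratio of summed counts of 18786 (95% counting interval 3371 to 742139), resting on 1 count in the intestinal libraries, and Krt16 was at least 154-fold higher. DESeq2 did not call Krt16 (adjusted p = 0.14), Krt34 (0.28) or Krt75 (0.27) in this comparison. Krt4 stood at 1310 and 1621 CPM against 0.302 and 0.491 CPM (log2 11.84, SE 0.93, adjusted p = 8.2e-09). The 3 lower keratins were Krt8 (3515 and 3297 CPM in intestine, log2 -3.23, SE 0.24, adjusted p = 2.2e-09), Krt18 (888 and 880 CPM, log2 -2.51) and Krt20 (107 and 109 CPM, log2 -4.30). At E16 a list of 4 epithelial genes took 0.0316 to 0.0386% of counts in forestomach and 0.361 to 0.362% in intestine. Mesenchyme and muscle genes took 2.2 to 2.63% against 0.152 to 0.167%, and blood genes 1.59 to 2.03% against 0.0199 to 0.0206%. What part these lists had in the result was not tested. Krt31, a hair keratin named after its value was seen, was 1 of the higher 17 at an adjusted p of 0.0394 and lost its call without E16 forestomach replicate 2 or either intestinal library.

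The hindstomach gained small amounts of stratified keratins by E16 and more of the simple keratin Krt19. From E14 to E16, 9 keratins were higher and none lower, where 22% of all genes were called. Krt4 went from 0.459 and 0.338 to 85.6 and 75.7 CPM (log2 7.64, SE 0.83, adjusted p = 2.1e-06), and Krt13 from 0 and 0.0376 to 31.2 and 35.4 CPM, a ratio of summed counts of 1831 (95% counting interval 328 to 72354). Krt15 rose from 16.7 and 16.9 to 117 and 91.6 CPM (log2 2.63, SE 0.44, adjusted p = 1.6e-04) and Krt19 from 419 and 412 to 1441 and 1430 CPM (log2 1.79, SE 0.21, adjusted p = 4.2e-06). Of 3 squamous genes in hindstomach, Trp63 was at 7.55 to 7.93 CPM at E14 and 1.91 to 3.06 at E16, Sox2 at 68.2 to 92.3 and then 25.1 to 32.4, and Dsg3 at 0 to 0.0353 and then 3 to 3.99 CPM. In the E16 forestomach they stood at 77.3 to 86.6, 35.4 to 41.4 and 16.2 to 20.5 CPM. Transcripts of other cells moved in the hindstomach as well. Mesenchyme and muscle genes took 0.0153 to 0.0167% of counts at E14 and 0.853 to 0.883% at E16, blood genes 0.00175 to 0.00188% and then 0.129 to 0.181% and neural genes 0.0018 to 0.00189% and then 0.055 to 0.0567%, while Epcam was at 737 to 752 and then 400 to 421 CPM. Their part in the result was not tested. Of the 9 calls 5 were kept in each fit without 1 library, and the count was 5 without E14 hindstomach replicate 2. Against E16 small intestine, 10 keratins were higher in hindstomach and 1 lower, where 25.7% of all genes were called. Krt4 was 85.6 and 75.7 against 0.302 and 0.491 CPM (log2 7.66, SE 0.87, adjusted p = 1.8e-06), and Krt20 was the lower one, at 14.5 and 11.2 against 107 and 109 CPM (log2 -3.07, SE 0.33, adjusted p = 6.9e-07). The count fell to 7 without E16 hindstomach replicate 2 or either E16 intestinal library.

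The change from E14 to E16 itself differed between the organs for 3 simple keratins. The log2 change in forestomach minus that in hindstomach was -2.43 for Krt8 (SE 0.32, adjusted p = 2.8e-05), -1.98 for Krt18 (SE 0.23, adjusted p = 8.8e-06) and -1.76 for Krt19 (SE 0.30, adjusted p = 3.8e-04), as an interaction term of the edgeR fit. These were the 3 keratins called, all lower, where 11.8% of all genes were called, and each call was kept without any 1 library. More keratins were called in other fits. With RLE factors 1 was higher and 3 lower, with DESeq2 3 and 3, in a fit of only these groups 4 and 5, and without the libraries labelled knockout 2 and 5. Krt4 and Krt15, which rose in both organs, gave interaction terms of 0.08 (SE 1.42, adjusted p = 1) and -1.19 (SE 0.59, adjusted p = 0.197). Krt15 was called in fits of these groups only (adjusted p = 0.0012) and without the libraries labelled knockout (0.025). Against small intestine the terms were -3.62 for Krt8 (SE 0.32, adjusted p = 8.9e-08), -2.29 for Krt18 (SE 0.23, adjusted p = 4.7e-07) and -1.51 for Krt19 (SE 0.30, adjusted p = 6.4e-04), and 2 keratins were higher and 3 lower, where 25.4% of all genes were called. From E14 to E16 a list of 4 epithelial genes went from 0.253 to 0.263% of counts to 0.0316 to 0.0386% in forestomach. In hindstomach it went from 0.253 to 0.257% to 0.159 to 0.168%, and in small intestine from 0.32 to 0.329% to 0.361 to 0.362%. Its part in these terms was not tested.

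In the small intestine simple keratins rose from E14 to E16, and by E18 Krt20 had risen further while Krt18 and Krt7 had fallen. From E14 to E16, 6 keratins were higher and 1 lower, where 25.6% of all genes were called, and 5 of the 6 were simple ones. Krt8 rose from 779 and 761 to 3515 and 3297 CPM (log2 2.15, SE 0.23, adjusted p = 6.4e-07), Krt19 from 534 and 482 to 1474 and 1477 CPM (log2 1.54, SE 0.21, adjusted p = 1.3e-05) and Krt20 from 27.1 and 16.3 to 107 and 109 CPM (log2 2.30, SE 0.32, adjusted p = 1.2e-05). Krt18 rose less, from 439 and 387 to 888 and 880 CPM (log2 1.10, SE 0.16, adjusted p = 2.9e-05, and 0.95 with library size scaling). The 1 lower keratin, Krt10, was not called with RLE factors, which left 6 higher and 0 lower, nor without E14 replicate 1 or either E16 library. The fifth simple one, Krt23, was called in only 1 of the 4 fits without 1 library (adjusted p up to 0.16) and not with DESeq2, and Krt79 in 3 of the 4. Other markers moved over this interval, with Vil1 at 147 to 151 and then 537 to 561 CPM, Cdh17, another gene of the intestinal epithelium, at 309 to 353 and then 936 to 989, and Ptprc, a gene of leukocytes, at 3.19 to 3.74 and then 18.5 to 21.5 CPM. Mesenchyme and muscle genes took 0.0378 to 0.0439% and then 0.152 to 0.167% of counts, and blood genes 0.00601 to 0.0065% and then 0.0199 to 0.0206%. What part they had in the change was not tested.

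At E18 the intestinal keratins differed again. Krt20 stood at 2435 and 2346 CPM, against 107 and 109 at E16 (log2 4.47, SE 0.34, adjusted p = 2.7e-09). Krt12, best known from the cornea, went from 0 and 0.0546 to 25.8 and 28.1 CPM, a ratio of summed counts of 1038 (95% counting interval 186 to 41057). Krt18 went the other way, from 888 and 880 to 231 and 217 CPM (log2 -1.98, SE 0.17, adjusted p = 9.2e-09), as did Krt7, from 321 and 301 to 63.4 and 65.3 CPM (log2 -2.27, SE 0.22, adjusted p = 5.9e-08). Krt8 was 3515 and 3297 and then 4267 and 4157 CPM (log2 0.31, not called, and -0.35 with library size scaling). In counts, Krt18 was thus 0.253 and 0.267 of Krt8 at E16 and 0.054 and 0.0521 at E18, and Krt20 was 0.0305 and 0.0329 of Krt8 at E16 and 0.571 and 0.564 at E18. In the adult wild-type ileum the ratios were 0.0588 and 0.0759 for Krt18 and 0.725 and 0.564 for Krt20, and Krt12 was at 21.1 and 20 CPM. Of the 28 keratins tested 4 were higher at E18 and 6 lower, where 42.1% of all genes were called. The count was 5 without E18 replicate 2, the calls of Krt17, Krt78, Krt79, Krt80 and Krt222 were each lost without at least 1 library, and Krt7, Krt12, Krt18, Krt20 and Krt23 kept their calls in each fit without 1 library. Villin (Vil1), a gene of mature enterocytes, was at 537 to 561 CPM at E16 and 5922 to 5965 CPM at E18. Mesenchyme and muscle genes took 0.152 to 0.167% of counts at E16 and 0.00263 to 0.00277% at E18, blood genes 0.0199 to 0.0206% and then at most 1.1e-04%, and Ptprc was at 18.5 to 21.5 and then 197 to 201 CPM. Their part in the result was not tested.

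The libraries labelled deleted at E10 held simple, basal and suprabasal keratins at once. All keratins together reached 30998, 22900 and 14009 CPM in the 3 libraries, against 6343 and 6093 CPM in wild-type E16 intestine and 10399 and 9848 CPM in E16 forestomach. The 3 libraries differed among themselves, with the first highest and the third lowest for most keratins. Simple keratins took 84.3, 84 and 90.7% of keratin counts, basal 8.4, 8.34 and 4.37% and suprabasal 7.04, 7.2 and 4.48%. Against wild-type E16 intestine 20 of 28 keratins tested were higher and none lower, where 51.5% of all genes were called, and 14 of the 20 calls were kept in each fit without 1 library. With library size scaling 17 were higher and 1 lower, and without replicate 3 of these libraries 19 and 1.

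Among the simple keratins Krt19 stood at 11064, 8616 and 5205 CPM against 1474 and 1477 CPM (log2 2.49, SE 0.21, adjusted p = 3.8e-09). Krt18 stood at 6405, 5058 and 3673 CPM against 888 and 880 CPM (log2 2.51, SE 0.16, adjusted p = 1.1e-10), and Krt7 at 1980, 1346 and 893 against 321 and 301 CPM (log2 2.18, SE 0.21, adjusted p = 2.2e-08). Krt7, like Krt8, is a type II keratin. Krt8, the type II partner of Krt18 and Krt19, was not called. It was 6132, 3718 and 2665 CPM against 3515 and 3297 CPM, which overlap (log2 0.29, SE 0.20, adjusted p = 0.218), and the sign turned without replicate 1 (-0.09) and with library size scaling (-0.54, adjusted p = 0.035). Krt18 counts were 1.04, 1.36 and 1.38 of Krt8 counts, above every wild-type library, where the highest was 0.692 in E12 intestine. Summed over the family, type I counts were 2.31, 2.89 and 2.64 of type II counts, against 0.652 and 0.692 in E16 intestine and 1.47 and 1.35 in E16 forestomach. Krt20 stood at 320, 293 and 134 CPM (log2 1.21, SE 0.28, adjusted p = 0.00108), but at 0.99 without replicate 1 and 0.36 with library size scaling it was not called.

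All 4 basal and 8 of 11 suprabasal keratins tested were higher than in wild-type intestine. Of the suprabasal calls, Krt1 was kept in only 1 of 5 fits without 1 library (log2 2.20 to 8.44), Krt16 in 3 and Krt79 in 4, and DESeq2 did not call Krt16 (adjusted p = 0.3). Krt15 stood at 2383, 1757 and 577 CPM against 1.26 and 1.97 CPM (log2 9.93, SE 0.63, adjusted p = 7.3e-11), and Krt5 at 172, 122 and 30.8 against 0.503 and 0 CPM (log2 8.68, SE 1.13, adjusted p = 2.2e-06). With its wild-type counts in 1 library, the Krt5 value was 14.36 without E16 small intestine replicate 1 and 7.74 without replicate 2. Krt4 was 1079, 683 and 244 CPM against 0.302 and 0.491 CPM (log2 10.71, SE 0.90, adjusted p = 6.5e-09), and Krt13 was 1036, 827 and 241 CPM against 0 and 0.109 CPM. The lowest of the 3 libraries was well above both wild-type libraries for each of these genes, which follows from differences of this size. How many of all genes separate in this way was not counted. Krt34, a type I keratin of the hair shaft, was at 73.4, 91.9 and 58.1 CPM, without a count in wild-type E16 intestine, at least 473-fold higher, and at 2.78 and 1.68 CPM in E16 forestomach. Krt10 was at 54.5, 123 and 130 CPM against 6.24 and 4.86 CPM (log2 4.20, SE 0.40, adjusted p = 1.9e-08), and unlike most keratins it was lowest in the first library. Markers of several stomach cell types were in the same libraries, with Cldn18 at 1083 to 1282 CPM, Tff2 at 719 to 2075, Sox2 at 51.3 to 70.7 and Trp63 at 7.91 to 21.1 CPM (Sox2 0 to 0.805 and Trp63 at 0 in wild-type E16 intestine). Others were lower, with Vil1 at 25.2 to 30.3 CPM against 537 to 561, Cdh17 at 16.2 to 27.1 against 936 to 989, mesenchyme and muscle genes at 0.0103 to 0.0137% of counts against 0.152 to 0.167% and blood genes at most 7.9e-04% against 0.0199 to 0.0206%. Their part in the result was not tested.

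Beside the E16 forestomach these libraries were lower in basal keratins and higher in Krt8, Krt18 and Krt19. Of the 28 keratins 6 were higher and 9 lower, about the share of all genes called (53.3%). The balance was not stable, at 8 higher and 6 lower without replicate 3 of these libraries and 8 and 8 in a fit of only these groups. All 4 basal keratins were lower, though Krt15 did not pass without replicate 3. Krt14 stood at 34.6, 22.7 and 2.35 CPM against 536 and 448 CPM (log2 -4.60, SE 0.73, adjusted p = 2.4e-05) and Krt5 at 172, 122 and 30.8 against 1735 and 1356 CPM (log2 -3.83, SE 0.64, adjusted p = 3.9e-05). Krt15 was lower by less, at 2383, 1757 and 577 against 3854 and 3424 CPM (log2 -1.21, SE 0.37, adjusted p = 0.00751, and -0.81 without replicate 3). In counts Krt15 was 13.8, 14.4 and 18.8 times Krt5, against 2.22 and 2.52 in E16 forestomach and 5.66 and 5.09 in E16 hindstomach. Krt13 was not called, and Krt4 had an adjusted p of 0.0473 that rose to 0.059 in a fit of these groups only, 0.28 with DESeq2 and up to 0.19 without single libraries (either forestomach library, or replicate 2 or 3). Krt18 (log2 5.03, SE 0.19, adjusted p = 8.1e-14), Krt8 (3.53, SE 0.24, adjusted p = 1.4e-10) and Krt19 (3.44, SE 0.22, adjusted p = 8.0e-11) were higher than in forestomach. Markers of cell types differed widely between these groups. Epcam was at 1849 to 2439 CPM against 112 to 137 in forestomach and Trp63 at 7.91 to 21.1 against 77.3 to 86.6, mesenchyme and muscle genes took 0.0103 to 0.0137% of counts against 2.2 to 2.63%, and blood genes at most 7.9e-04% against 1.59 to 2.03%. The part of these in the keratin differences was not tested. The hair keratin Krt81, named after its value was seen, was 1 of the 9 lower at an adjusted p of 0.0478, and was lost without E16 forestomach replicate 2 or any 1 of the 3. The genes of this anchor and linker list were split against intestine, with 6 higher and 6 lower of 18 where 51.5% of all genes were called. Against forestomach 3 were higher and 10 lower, where 24.7% of all genes were higher and 28.7% lower.

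**Figure D4:**
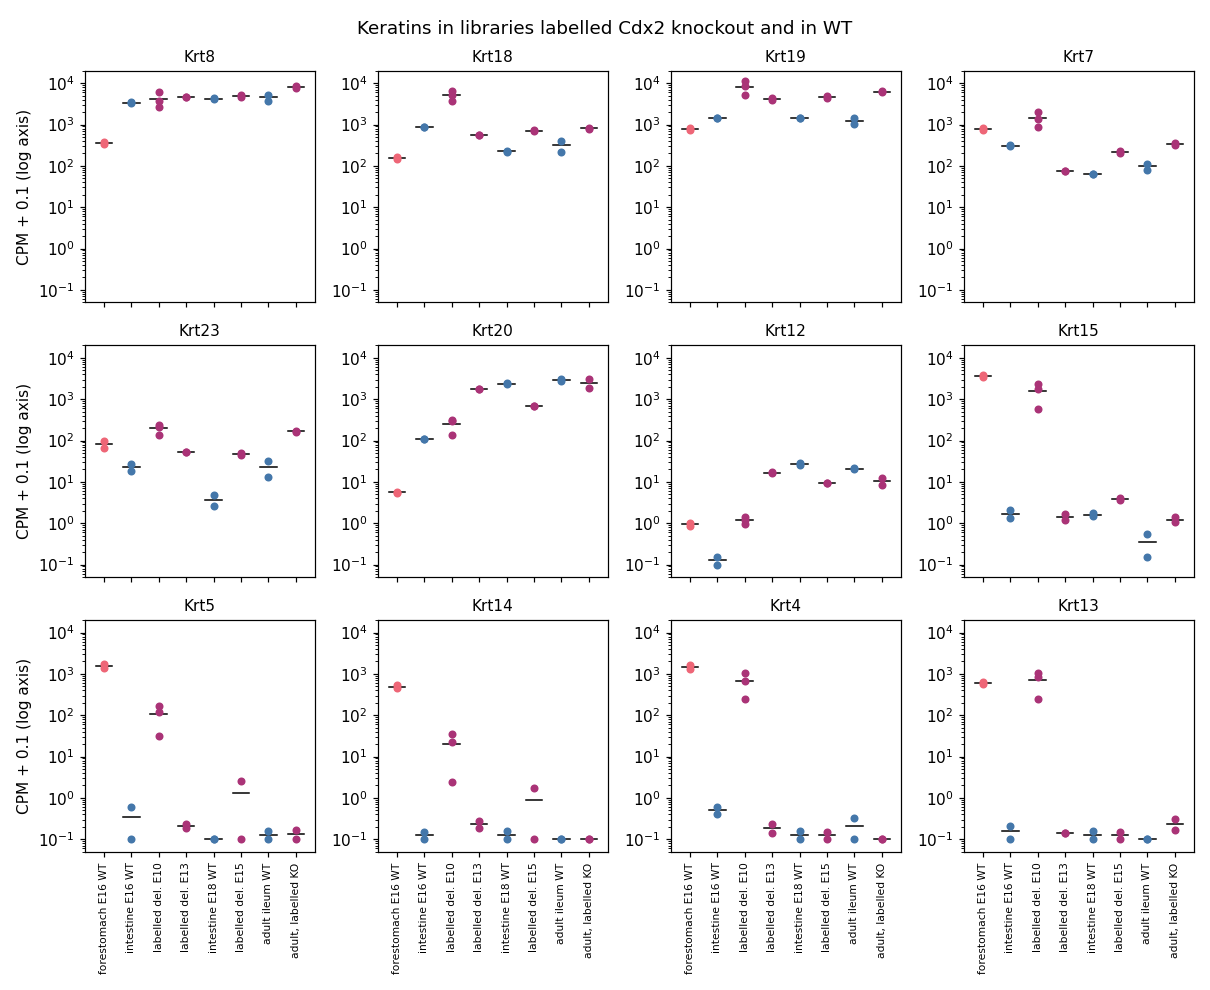
Levels of 12 keratins (panels) as CPM plus 0.1 on a log axis in wild-type E16 forestomach, wild-type small intestine and adult ileum and the libraries labelled knockout, 1 point per library. The libraries labelled deleted at E10 share high Krt4, Krt13 and Krt15 with forestomach and lie above all others for Krt18. Those labelled deleted later hold Krt20 and hardly any Krt5 or Krt13.

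The libraries labelled deleted at E13 held hardly any Krt5 or Krt13. Krt5 was at 0.0827 and 0.134 CPM, Krt13 at 0.0413 and 0.0446 CPM and Krt34 at 0. Suprabasal or specialised keratins summed to 21.9 and 22.3 CPM, most of it Krt12, against 9.26 and 6.99 CPM in wild-type E16 intestine, and 2 of 11 tested were higher. Simple keratins took 99.8% of keratin counts in both. Against wild-type E16 intestine 4 keratins were higher and 2 lower, where 39.5% of all genes were called, and library size scaling gave 3 higher and 4 lower. Of these calls Krt7, Krt12, Krt19 and Krt20 were kept in each fit without 1 library. Krt78, the other suprabasal one, and Krt17, a lower one whose 25 counts were in 1 wild-type library, were each called in only 1 of 4 such fits. Krt20 stood at 1789 and 1739 CPM against 107 and 109 CPM (log2 4.03, SE 0.34, adjusted p = 9.0e-09) and Krt12 at 16.2 and 17 CPM against 0 and 0.0546 CPM, a ratio of summed counts of 632 (95% counting interval 113 to 24983). Krt19 stood at 4033 and 4277 against 1474 and 1477 CPM (log2 1.49, SE 0.21, adjusted p = 8.0e-06, and 0.89 with library size scaling), and Krt7 was lower at 73.2 and 74 CPM (log2 -2.08, SE 0.22, adjusted p = 1.8e-07). Krt7, Krt12 and Krt20 thus lay nearer to the wild-type E18 values of 63.4 and 65.3, 25.8 and 28.1, and 2435 and 2346 CPM than to those of E16, their labelled stage. That was not so for all simple keratins. Krt23, at 53.1 and 53.3 CPM (not called), lay nearer to the E16 values of 26.9 and 17.9 CPM than to the E18 values of 2.47 and 4.67 CPM, and Krt8 and Krt19 lay above both stages. Over 17239 genes the group means of these libraries also had a higher Spearman correlation with wild-type E18 intestine (0.934) than with E16 (0.843), given as a description. Markers of several cell types differed in these libraries as well. Glandular stomach genes took 0.0722 to 0.0739% of counts against 4.1e-04 to 5.0e-04% in wild-type E16 and at most 2.9e-05% in wild-type E18 intestine, with Tff2 at 335 to 341 CPM against 1.91 to 2.18 at E16. Vil1 was at 1951 to 1984 CPM against 537 to 561 at E16, and mesenchyme and muscle genes took 0.0052 to 0.00556% against 0.152 to 0.167%. What part these had in the result was not tested. Krt8 (4625 and 4658 CPM, log2 0.45, and -0.16 with library size scaling) and Krt18 (574 and 574 CPM, log2 -0.62) were not called, the latter between its E16 (888 and 880 CPM) and E18 (231 and 217 CPM) values.

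Krt7, Krt18, Krt19 and Krt23 were higher and Krt20 was lower in the libraries labelled deleted at E15 than in wild-type E18 intestine. Krt19 stood at 4927 and 4474 CPM against 1458 and 1475 CPM (log2 1.68, SE 0.21, adjusted p = 7.2e-06), and Krt18 at 723 and 681 against 231 and 217 CPM (log2 1.65, SE 0.17, adjusted p = 4.4e-07). Krt23, a type I keratin of simple epithelia, stood at 48.6 and 45.6 CPM against 2.47 and 4.67 CPM (log2 3.69, SE 0.69, adjusted p = 4.0e-04) and the type II Krt7 at 228 and 206 against 63.4 and 65.3 CPM (log2 1.75, SE 0.22, adjusted p = 5.7e-06). Krt20 was lower, at 679 and 677 against 2435 and 2346 CPM (log2 -1.82, SE 0.31, adjusted p = 1.5e-04). Krt8, at 5154 and 4748 against 4267 and 4157 CPM, was not called (log2 0.23). These 4 higher and 1 lower were the keratins called, where 17.5% of all genes were called, and all 5 kept the call in each fit without 1 library. More were called with DESeq2 (6 higher and 2 lower) and in a fit of only these groups (6 higher and 3 lower). Basal and suprabasal keratins were not called, and Krt15 was at 3.98 and 3.48 CPM. Vil1 was at 1559 to 1633 CPM against 5922 to 5965 CPM in the wild type, Cdh17 at 916 to 942 against 2545 to 2559 and Ptprc at 6.41 to 7.26 against 197 to 201 CPM. The stomach gene Tff2 was at 8.68 to 10.1 against 0.11 to 0.329 CPM, and mesenchyme and muscle genes took 6.7e-04 to 7.5e-04% of counts against 0.00263 to 0.00277%. What these markers contribute was not tested.

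The adult ileum labelled knockout had the same simple keratins at a higher level than the adult wild type, in a separate fit of 4 libraries and without a difference in strain label. Krt19 stood at 6363 and 6179 CPM against 1028 and 1422 CPM (log2 2.36, SE 0.24, adjusted p = 0.00494), and Krt7 at 359 and 317 against 81.2 and 112 CPM (log2 1.81, SE 0.20, adjusted p = 0.00547). Krt18 stood at 847 and 801 against 222 and 404 CPM (log2 1.40, SE 0.31, adjusted p = 0.0282) and Krt23 at 174 and 159 against 13.4 and 31.7 CPM (log2 2.88, SE 0.43, adjusted p = 0.0111). Both latter calls were lost without either library labelled knockout, with an adjusted p of up to 0.11 for Krt18 and 0.061 for Krt23. Krt8, at 8625 and 7823 against 3774 and 5331 CPM, missed the call (log2 0.85, SE 0.25, adjusted p = 0.0589), and Krt20, at 1922 and 3038 against 2735 and 3009 CPM, overlapped. Of 16 keratins tested 4 were higher and 3 lower (Krt12, Krt222 and Krt27, the last named after its value was seen), where 20.4% of all genes were called. None of the 3 lower calls was firm: that of Krt27 was lost in each of the 4 fits without 1 library (adjusted p 0.059 to 0.1), and Krt12 and Krt222 were called in only 1 of the 4. The count was 4 without either wild-type library and 3 without either one labelled knockout. Other markers moved with the label, with Vil1 at 1970 to 2281 CPM against 4373 to 4649 in the wild type, Cdh17 at 1340 to 1461 against 2270 to 2444 and Ptprc at 3.35 to 3.81 against 20.9 to 47.2 CPM. Whether these bear on the keratin levels was not tested. Tamoxifen was given only to the mice labelled knockout, so treatment and genotype cannot be told apart here.

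Krt18, Krt19 and Krt7 can be set side by side over the labelled knockouts. Against their own wild-type groups, Krt19 differed by log2 2.49, 1.49, 1.68 and 2.36 in the libraries labelled deleted at E10, E13, E15 and in the adult, and Krt7 by 2.18, -2.08, 1.75 and 1.81. Krt18 differed by 2.51, -0.62 (not called), 1.65 and 1.40. Krt8, a type II keratin like Krt7 and the main partner of Krt18 and Krt19, differed by 0.29, 0.45, 0.23 and 0.85, none of them called. The comparisons labelled E10 and E13 share their wild-type libraries. The count ratio of Krt19 to Krt8 was 0.419 and 0.448 in wild-type E16 intestine, 0.342 and 0.355 in E18 and 0.272 and 0.267 in the adult, and 1.8, 2.32 and 1.95, 0.872 and 0.918, 0.956 and 0.942, and 0.738 and 0.79 in the libraries labelled deleted at E10, E13, E15 and in the adult. It was higher in each labelled knockout library than in each wild-type intestinal library from E16 on.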

How the data were processed

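RNA was sequenced as 75-base single-end reads from SMARTer v4 libraries (embryonic) and TruSeq libraries (adult), per the labels' protocols. The authors deposited 1 table of raw counts per gene. The submitters' processing notes name STAR 2.5.3a, HTSeq, Bowtie2, MACS2 and mm9 without saying which step each served; the gene annotation and the strand setting are not given in the sources used here. Blank cells in the adult columns were closed up first, and keratin rows lie above them. The count columns that match no sample used here, 2 in number, were left out.

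The keratins, the gene lists and the tests were chosen with earlier results of these data known. Counts were fitted with edgeR 4.0.16 (R 4.3.3): filterByExpr with a minimum count of 10, TMM factors and the quasi-likelihood test, for 27 embryonic libraries in 13 groups (17239 genes) and for 4 adult ones apart (12444 genes). A call needed a Benjamini-Hochberg adjusted p under 0.05 and a log2 fold change of at least 1. The standard error (SE) was taken from the F statistic, as the size of the fold change on the log2 scale over the root of F. Against a group without counts, a floor of 3 counts per library was used, and 1 to 3 counts gave a ratio with an exact 95% interval for counting error only. Levels are CPM computed from the deposited counts. Replicate numbers did not pair samples (correlations of deviations -0.04 to 0.09 over 66 group pairs, 0 above 0.1). The pipeline was tested on simulated counts. Keratins named were 15 of fixed interest and 9 with a group mean above 1 CPM. Alternatives were RLE factors, no filter, DESeq2 1.42.0, fits of only the groups compared, a replicate block and leaving out each library, and, added after the data were seen, library size scaling and a fit without the libraries labelled knockout.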

Additional observations from a re-analysis of the deposited data

Results flagged for a closer look

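The change from E14 to E16 differed between organs for 5 keratins, by the interaction term of the edgeR fit over all genes. Against hindstomach, the change in forestomach differed by -2.43 log2 units for Krt8, -1.98 for Krt18 and -1.76 for Krt19. In forestomach Krt8 went from 987 and 1023 to 377 and 347 CPM, while in hindstomach it went from 1375 and 1415 to 2738 and 2673 CPM. Krt19 was 751 and 751 and then 728 and 804 CPM in forestomach, and 419 and 412 and then 1441 and 1430 CPM in hindstomach. Against small intestine the differences were -3.62 for Krt8, -2.29 for Krt18 and -1.51 for Krt19, where Krt8 went from 779 and 761 to 3515 and 3297 CPM.

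The other 2 were higher in forestomach against small intestine and rested on few libraries. The term was 2.04 for Krt10, at 12.4 and 13.1 and then 34.9 and 15.3 CPM in forestomach against 12.7 and 10.4 and then 6.24 and 4.86 CPM in intestine, and without E16 forestomach replicate 1 it was not called (1.33, adjusted p = 0.068). For Krt12 it was 7.88, but no library of these 4 groups passed 0.926 CPM, and it was not called without E14 small intestine replicate 1 (adjusted p = 0.076). Mesenchyme and blood transcripts were higher and the list of epithelial genes lower in the E16 forestomach libraries, as given above. Their part in these differences was not tested.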

How the results depend on the processing

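Every alternative left the count of keratins called within 1.5 times the reported one except these. In a fit of only the groups compared, the count was 2 instead of 5 for forestomach against small intestine at E12, 9 instead of 5 for the libraries labelled deleted at E15 and 9 instead of 3 for the forestomach against hindstomach difference in change. DESeq2 gave 8 for the libraries labelled deleted at E15 and 6 for that difference in change, the replicate block gave 5 for it and the fit without the libraries labelled knockout 7, and the adult count was 4 with all 31 libraries in 1 fit. Leaving out 1 library at a time, where a group left with 1 library is assumed to vary like the others, gave these ranges. For forestomach against hindstomach they were 2 to 4 (E12), 5 to 7 (E14) and 10 to 14 (E16); against small intestine 4 to 9, 7 to 10 and 17 to 21; and for hindstomach against small intestine 7 to 9. Over time they were 8 to 10 and 11 to 15 in forestomach, 5 to 8 in hindstomach, and 5 to 6 and 5 to 8 in small intestine. For the libraries labelled deleted at E10 they were 16 to 20 (intestine) and 13 to 14 (forestomach), at E13 4 to 5 and at E15 5 to 6, for the adult 3 to 4, and for the differences in change 3 to 4 (hindstomach) and 4 to 6 (small intestine). Of the values of single keratins, Krt8 and Krt4, not called in the comparisons concerned, turned their sign. Krt8 did so with library size scaling at E18 against E16 (-0.35) and for the labels of deletion at E10 (-0.54) and E13 (-0.16), and without replicate 1 of the E10 label, where leaving out 1 library gave -0.09 to 0.53. Krt4 did so in the forestomach against hindstomach difference in change, at -0.11 with library size scaling and -0.18 to 0.41 without 1 library. Library size scaling moved the median of all genes to -0.95 for the libraries labelled deleted at E10 against intestine (-0.1 with TMM), -0.87 against forestomach, -0.7 at E18 and -0.65 for those labelled deleted at E13, and RLE factors moved it to 0.26 for forestomach E16 against E14. Of 197 values of single keratins, the replicate block ended 7 calls, among them Krt4 (-0.75) and Krt15 (-0.82) for the libraries labelled deleted at E10 against forestomach, RLE factors ended 3 and DESeq2 27 (1 more had no adjusted p there), mostly of Krt16, Krt17, Krt34 and Krt75, and of Krt5 from E14 to E16 in forestomach (adjusted p = 0.21) and hindstomach (0.13). The cause was not tested. With the block, the libraries labelled deleted at E10 had 18 keratins higher and 1 lower than intestine, and 8 higher and 6 lower than forestomach. The ratio of type I to type II counts per transcript length was not run. Depth limits what can be said of keratins under 1 CPM, most of all in E16 forestomach.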
